A study of Mus musculus with 8 samples.

Results

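The cytosines described here are the autosomal CpG cytosines that were covered by more than 200 reads in every one of 8 reduced representation bisulfite sequencing (RRBS) libraries, leaving out the ribosomal RNA stretch of chromosome 17. There were 473 of them among 3544233 autosomal cytosines listed in any library, of which 893419 were listed in all 8 and 555155 had at least 10 reads in all 8. They were chosen by their read counts alone, so their depth is given as a description, and only their methylation, which the choice did not use, was compared between treatments. All positions refer to the mouse assembly GRCm38 (mm10).

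The libraries came from tumors of NIC-5231 cells, a mouse mammary tumor line driven by ErbB2, implanted into mammary fat pads of NSG hosts aged 5 to 7 weeks. NSG mice are immunodeficient, and since host and tumor are both mouse, reads of host cells within a tumor cannot be told apart from those of NIC-5231. The 4 groups of 5 mice received vehicle (labelled DMSO), the ERRα inhibitor C29 at 10 mg/kg, the DNA methyltransferase inhibitor 5-azadC at 1 mg/kg, or C29 and 5-azadC together at those doses, injected every 2 days. Each group had 2 libraries, each from pooled tumor DNA of 2 mice.

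Most CpG methylation in a mammalian genome lies in repeated DNA. Tandem satellite arrays around the centromeres and interspersed elements that have copied themselves through the genome are kept methylated in normal cells, largely by DNMT1, which restores the mark on the new strand after replication. Decitabine (5-azadC) is built into new DNA and traps DNMT1 there, so that methylation is lost as cells divide. In RRBS the enzyme MspI cuts at CCGG and the ends of the fragments are read. Reads of a fragment with many copies in the genome can gather at a place in the reference. The copy that such reads came from was not tested here.

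The 473 cytosines, called members below, took 3.03% to 4.83% of all autosomal reads in a library. Their median depth was 440 to 683 reads, 20.95 to 24.4 times the median of the library. All autosomal cytosines together took 50013750 to 79188401 reads per library, with a median of 21 to 30 reads. C29 replicate 2 stood apart from the other libraries. It had the lowest share of reads on members (3.03%), listed the most cytosines (2140186, against 1730444 to 1925652 elsewhere), and differed from C29 replicate 1 by a median of 7.83 points over the 245 members of intermediate methylation (20% to 80%), against 4.07 to 5.33 points between the replicates of the other groups. Values without it are given where it moves a result. Unmethylated spike-in DNA was called methylated in 0.216% to 0.329% of reads, and methylated spike-in DNA in 97.5% to 98.3%.

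Members lay on all 19 autosomes but were unevenly spread, with 87 on chromosome 11, 60 on chromosome 13 and 38 on chromosome 2, and 3 on chromosome 15. Linking members no more than 1000 bp apart gave 133 clusters. Of these, 63 held a single member, 43 held 2 to 4 and 27 held 5 or more. The 10 clusters with at least 10 members held 196 members (41.4%). The largest was chr13:119488315-119489000, with 44 members over 3110070M22Rik and Tmem267. The next were chr11:109011699-109011984 (28 members, intergenic, 2918 bp from the pseudogene Gm11668), chr11:3193348-3193628 (21 members, at Sfi1, Drg1 and Gm12735), chr2:98666262-98667255 (20 members, at Gm10800), chr3:5860620-5860702 (16 members, intergenic), and 3 clusters of 15 members, in an intron of Cdk8 (chr5:146261012-146261295), at the 5′ end of Erbb2 (chr11:98412577-98412645) and in intergenic DNA of chromosome 17 (chr17:36231292-36231483). The stretch of chromosome 2 that holds Gm10800 and its neighbour Gm10801, a pair of predicted genes, carried 29 members in 2 clusters, 9 of them at chr2:98662351-98662856 in Gm10801.

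**Figure D1:**
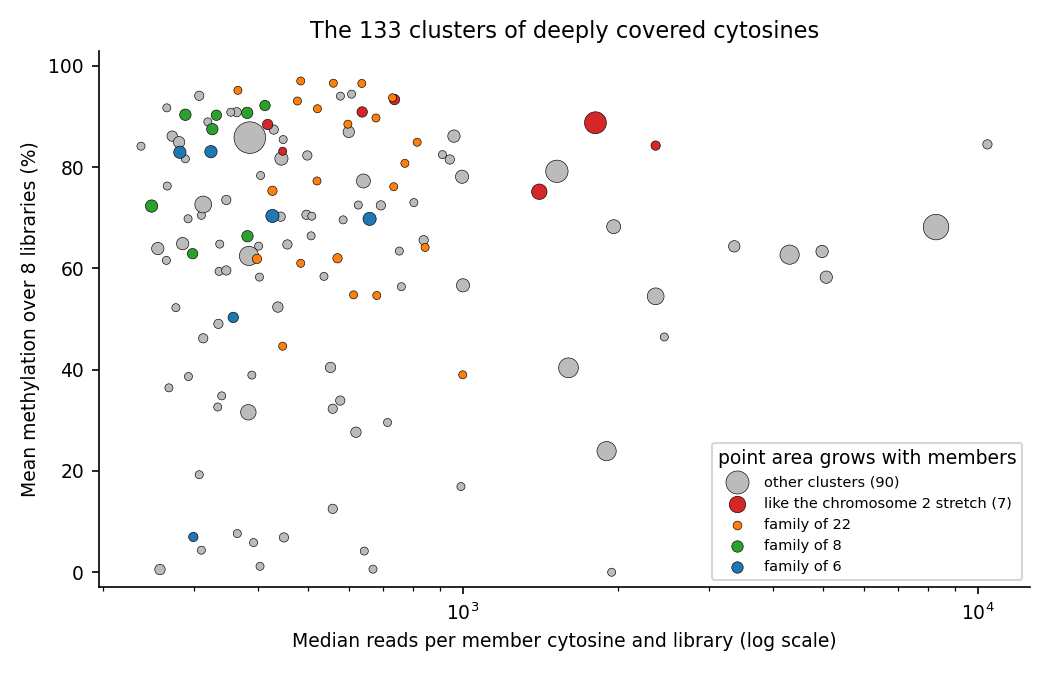
Each point is 1 of the 133 clusters, placed by the median reads per member and library (x axis, log scale) and by its mean methylation over the 8 libraries (y axis, %); area grows with the number of members and colors mark families of clusters that share sequence. Clusters of every methylation level occur, from 0% to 97.03%, and those of the family that includes the chromosome 2 stretch (red) lie between 75.2% and 93.4%.

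The sequences that carry the results are shown next, from the plus strand of GRCm38, with the CpGs that hold a member in capitals. The first pair are the chromosome 2 fragment with the deepest cytosine of the data and the deep end of the neighbouring cluster. The next line is a chromosome 9 cluster that was grouped with them by shared sequence.

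chr2:98666254-98666512: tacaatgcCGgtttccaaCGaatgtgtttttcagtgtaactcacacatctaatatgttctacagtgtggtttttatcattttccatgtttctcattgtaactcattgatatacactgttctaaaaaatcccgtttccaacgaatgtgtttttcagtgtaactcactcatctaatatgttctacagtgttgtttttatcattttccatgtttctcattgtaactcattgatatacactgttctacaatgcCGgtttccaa
chr2:98662775-98662876: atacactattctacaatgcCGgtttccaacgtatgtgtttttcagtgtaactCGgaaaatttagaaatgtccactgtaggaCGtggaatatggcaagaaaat
chr9:3004735-3004875: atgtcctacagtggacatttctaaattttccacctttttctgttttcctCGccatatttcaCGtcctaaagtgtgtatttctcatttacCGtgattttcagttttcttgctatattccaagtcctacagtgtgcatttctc

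The next group comes from outside that family and shows the 2 clusters of highest median reads, on chromosomes 15 and 11, and the large cluster of chromosome 3. The pair from chromosome 15 each hold 1 member at a CCGG, in windows of 35.5% and 44.6% GC. The windows from chromosomes 11 and 3 are dense in CpGs.

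chr15:75085753-75085873: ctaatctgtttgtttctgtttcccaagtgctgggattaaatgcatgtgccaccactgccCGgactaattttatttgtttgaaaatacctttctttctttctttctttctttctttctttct
chr15:75086319-75086439: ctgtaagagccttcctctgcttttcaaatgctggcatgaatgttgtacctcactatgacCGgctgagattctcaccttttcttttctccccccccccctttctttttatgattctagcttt
chr11:109011692-109011991: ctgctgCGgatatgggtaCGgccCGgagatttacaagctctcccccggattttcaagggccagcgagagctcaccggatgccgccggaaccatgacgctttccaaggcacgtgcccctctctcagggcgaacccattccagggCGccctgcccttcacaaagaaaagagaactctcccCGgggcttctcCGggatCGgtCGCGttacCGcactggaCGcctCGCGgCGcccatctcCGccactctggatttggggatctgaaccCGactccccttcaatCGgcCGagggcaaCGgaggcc
chr3:5860605-5860717: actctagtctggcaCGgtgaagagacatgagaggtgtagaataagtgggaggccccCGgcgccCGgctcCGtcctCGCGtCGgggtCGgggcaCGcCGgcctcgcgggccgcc

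The last group shows 3 of 22 short clusters that share a sequence on 14 chromosomes, which were picked after their methylation had been seen, and a cluster from each of 2 other families that the naming rule chose.

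chr8:5701904-5702004: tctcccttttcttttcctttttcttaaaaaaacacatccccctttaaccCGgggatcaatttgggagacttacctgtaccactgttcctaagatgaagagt
chr11:12922286-12922386: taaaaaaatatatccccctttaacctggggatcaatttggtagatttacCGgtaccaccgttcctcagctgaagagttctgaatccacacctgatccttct
chr7:86898295-86898395: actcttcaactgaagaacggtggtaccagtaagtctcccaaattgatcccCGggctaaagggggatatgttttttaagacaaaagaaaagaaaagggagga
chr12:94550015-94550123: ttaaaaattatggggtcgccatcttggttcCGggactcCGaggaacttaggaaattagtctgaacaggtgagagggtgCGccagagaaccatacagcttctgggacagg
chr16:22928753-22928856: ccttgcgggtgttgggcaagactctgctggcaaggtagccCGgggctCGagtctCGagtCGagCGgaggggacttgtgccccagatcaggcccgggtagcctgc

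Compared with all tested cytosines (those with at least 10 reads in all 8 libraries), members more often lay in repeats. The reference marks 161 of 473 (34.0%) as repeat by soft masking, against 8.08% of all tested, and the 51 bases centred on the cytosine recurred exactly elsewhere for 71 (15.01%) against 0.863%. Members were intergenic in 213 cases (45.0%, against 26.3%) and intronic in 158 (33.4%, against 34.2%). Coding exons held 37 (7.82%, against 15.2%) and UTRs 49 (10.4%, against 18.01%). A CCGG lay within 50 bp of 423 members (89.4%), against 99.7% of all tested. Depth chose the members, and neighbouring members share fragments, so these shares are descriptions.

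When each cluster with 75 bases on each side was aligned with the others, 52 of the 133 clusters fell into 8 families (at least 80% identity over at least 80 bases). The family with the most clusters had 22, nearly all with a single member (25 members, median pairwise identity 90.1%), and its members had 51 to 231 near-copies in the reference (alignments of at least 85% identity that cover the member with 25 bases on each side). A family of 8 clusters (30 members) had up to 7332 near-copies and a family of 6 clusters (27 members) 6781 to 8888. The chromosome 2 stretch belonged to a family of 7 clusters and 41 members, with the others at chr9:3004785-3004825, chr9:3022193, chr9:35305418-35305434, chr14:19415758-19415798 and chr14:19418796-19418836. Around the cluster at chr9:3004785-3004825, 80.8% of bases equalled the base 234 positions further on, against a median of 31.1% over all shifts from 20 to 400 bases, and around chr2:98666262-98667255 the best shift was also 234 bases (39.2% against 27.96%). Around chr2:98662351-98662856 it was 28 bases (36.3%). A unit of 234 bases is the known length of the mouse major satellite, the tandem repeat of pericentromeric heterochromatin. Members in the first sequence shown had 1 to 11 near-copies, and those in the chromosome 9 sequence had 163 to 164. The shift of 234 bases on chromosome 2 was measured over 1994 bases around the cluster, not over the first sequence shown. In that sequence the stretch that begins gtttccaacgaatg recurs near the middle, after fewer than 234 bases. Whether the first sequence belongs to the same repeat as the chromosome 9 sequence was not tested. At the other end, 199 members had no second near-copy. These included the 28 at chr11:109011699-109011984 and those of the Erbb2 cluster. The reference used here names no repeat families and holds no complete ribosomal RNA unit, so likeness to ribosomal RNA outside the chromosome 17 stretch was not analysed here.

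A single cytosine held most of the reads. The minus-strand cytosine at chr2:98666504, in a CCGG just outside Gm10800, had 1680344 and 2092988 reads in the vehicle libraries, 2093620 and 1036345 with C29, 1927172 and 2135525 with 5-azadC and 1761953 and 1638469 with both drugs. It alone took 1.45% to 3.28% of the autosomal reads of a library and 47.8% to 67.9% of the reads on members, with both low ends in C29 replicate 2. The CCGG before it lies 241 bases upstream, so the fragment between both sites is the first sequence shown, and the 2 plus-strand members at its other end had medians of 31543.5 and 31677 reads. The next CCGG downstream is 2359 bases away. The minus-strand cytosine at chr2:98662795 followed with a median of 194312 reads, and chr15:75085813 (minus strand) with 21273.

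Within the chromosome 2 family, depth fell into 2 kinds that moved differently over the libraries. The 5 members within 50 bp of a CCGG had a median of 19680 reads in C29 replicate 2 against 27912 to 39808 in the others. The 36 members over 50 bp from any CCGG had a median of 3283 reads in C29 replicate 2, 1869 in DMSO replicate 2 and 532.5 to 904 in the remaining 6 libraries. The members of this family away from MspI sites were thus deepest in C29 replicate 2. Both kinds also differed in sequence, with 1 to 11 near-copies and 20% masked near CCGG, against 10 to 191 and 88.9% farther away. Distance from CCGG and kind of sequence therefore cannot be told apart. The 14 other members over 50 bp from a CCGG did not share this order, with a median of 483.5 reads in C29 replicate 2 against 472.5 to 760.5 elsewhere.

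**Figure D2:**
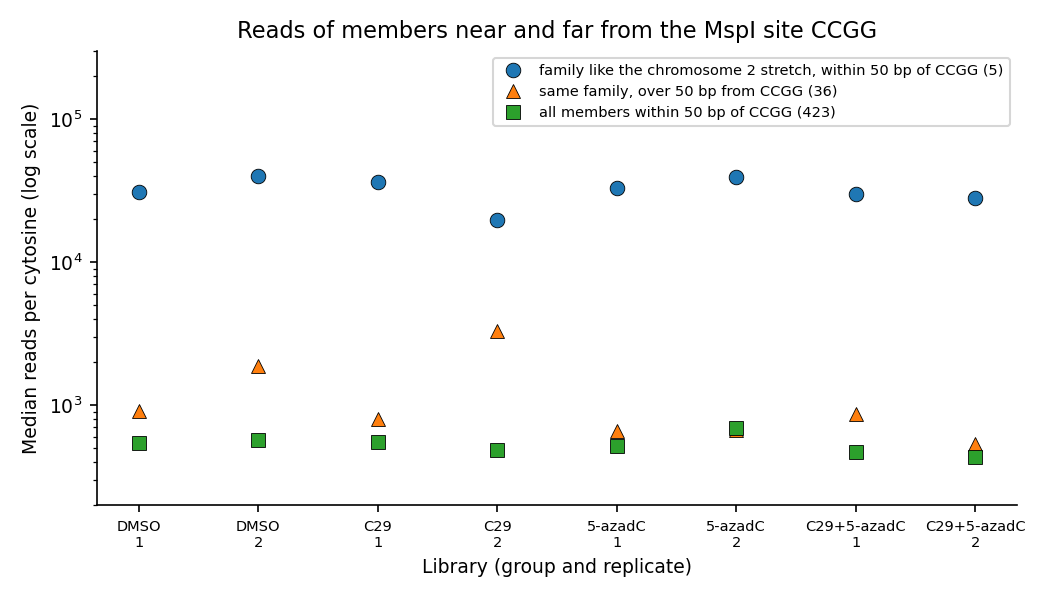
Median reads per cytosine (y axis, log scale) in each library (x axis) for members of the chromosome 2 family within 50 bp of CCGG (circles), for members of that family farther away (triangles) and for all members within 50 bp of CCGG (squares). C29 replicate 2 has the lowest circle (19680) and the highest triangle (3283).

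The threshold of 200 reads cut through continuous fragments. The last cytosines left out had 200 reads in their lowest library and the first kept had 201, and both kinds lay side by side at chr11:98412574 and 98412577 (Erbb2) and at chr10:125022060 and 125022082. Their mean methylation was 60.7% and 56.2% at the first place and 51.4% and 68.2% at the second.

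Members were more methylated than the rest of the data. Their mean over libraries was 67.2% and their median 72.5%, against 32.3% and 8.33% for all tested cytosines, and 40.4% of members against 20.5% of all tested exceeded 80%. Only 23 members (4.86%) were below 10%, against 50.98% of all tested. The cytosine at chr6:60567572 (median 1943 reads), picked after its values had been seen, was at 0% in all 8 libraries, and 1 member of the chromosome 17 cluster, chr17:36231321, averaged 0.0751%. The chromosome 2 family averaged 85.9%, the family of 8 clusters 81.3%, the family of 22 clusters 75.1% and the family of 6 clusters 68.0%. The 5 deepest clusters outside the chromosome 2 family, those with medians over 4000 reads, averaged 65.9%. These were chr11:109011699-109011984, the Cdk8 intron, an intron of Taco1 (chr11:106066778-106066810), an intron of Jarid2 (chr13:44869632-44869654) and the pair at chr15:75085813 and 75086379.

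Within clusters, neighbouring CpGs could differ widely. At chr2:98662351-98662856, member means ran from 8.31% to 91.96%, the low one being chr2:98662827. At chr17:36231292-36231483 they ran from 0.00804% to 51.4%. The 44 members over 3110070M22Rik and Tmem267 ran from 32.7% to 95.1%. For 35 CpGs both strands were members, and their strands differed by a median of 3.499 points and at most 11.5 points.

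The gap between replicates was narrower at deeper cytosines but did not vanish. Whether depth itself narrowed it was not tested, since members also differ in sequence. Over cytosines of intermediate methylation (20% to 80%), the 2 libraries of a group differed by a median of 29.1 points where the lowest library had 10 to 20 reads, 22.2 points at 21 to 50, 16.2 at 51 to 100, 11.8 above 100 and up to 200 and 5.39 points for members. Counting error alone gives 7.05, 5.81, 4.41, 3.17 and 1.52 points at those depths, so the gap between replicates was several times the counting error at every depth. PCR copies were not marked, so counting intervals cover counting error only. At 200 reads and 50% methylation the 95% interval is 6.93 points to either side. Across members, which are not independent, Pearson's r was 0.928 to 0.954 between the libraries of a group and 0.881 to 0.950 between groups, against 0.795 to 0.864 and 0.793 to 0.871 over all tested cytosines.

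**Figure D3:**
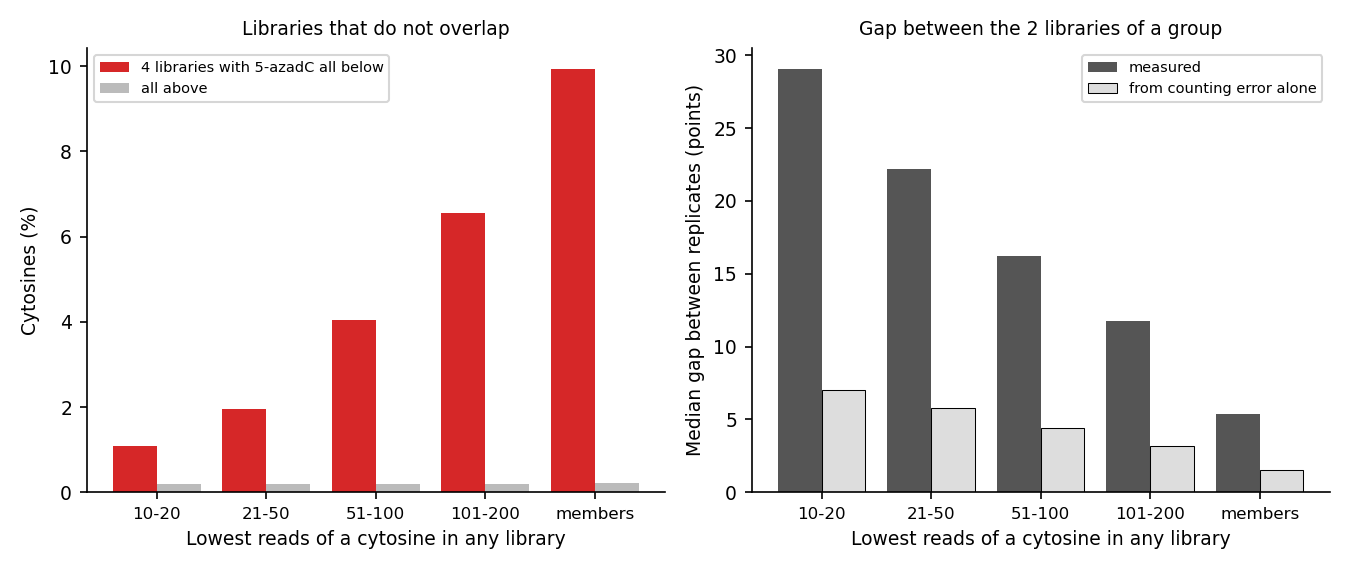
Left, the share of cytosines (%) whose 4 libraries with 5-azadC all lay below (red) or all above (grey) the 4 without it, by the lowest reads of the cytosine in any library (x axis). Right, the median gap in percentage points between the 2 libraries of a group for cytosines of 20% to 80% methylation, as measured (dark) and from counting error alone (light). From the shallowest class to members the red share goes from 1.10% to 9.94% and the gap from 29.1 to 5.39 points; the ribosomal RNA stretch over 200 reads, not drawn, has 0.203% below.

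The first question was whether 5-azadC lowered methylation at these cytosines. Averaged over the 473 members, methylation stood at 69.8% and 70.6% with vehicle, 68.7% and 66.3% with C29, 65.5% and 65.1% with 5-azadC, and 66.6% and 65.3% with both drugs. The 4 libraries with 5-azadC averaged 65.6% ± 0.640 (SD) and the 4 without it 68.9% ± 1.88, a difference of -3.21 points, beside -3.39 points over all tested cytosines. C29 replicate 2 (66.3%) lay below the highest library with 5-azadC (66.6%), so the groups overlapped, and without it the difference was -4.06 points. Counting each cluster once gave -5.89 points. Of the 473 members, 340 (71.9%) had a lower mean with 5-azadC, against 40.6% of all tested, among which unmethylated cytosines are common.

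The 4 libraries with 5-azadC all lay below the others at 47 members (9.94%), against a background of 1.51% of all tested cytosines and 6.55% of those whose lowest library had over 100 and up to 200 reads. In the ribosomal RNA stretch of chromosome 17, 1 of 493 cytosines with over 200 reads (0.203%) lay below, with a mean difference of 1.55 points. Without C29 replicate 2 the members' count was 65 (13.7%), against 2.49% of all tested. They all lay above the others at 1 member, against 0.197% of all tested. That member, chr2:67079820, singled out after its values had been seen, read 0% and 0.269% with vehicle and 14.9% and 10.9% with 5-azadC, beside 8.33% and 6.12% with C29 and 8.56% and 12.0% with both drugs. By the quasi-likelihood test of edgeR over all 8 libraries, at an adjusted p below 0.05, 8 of the 470 members that could be tested were lower with 5-azadC and 0 were higher, against a background of 9 lower cytosines (0.0026%) and 0 higher among 346356. At an unadjusted p below 0.05, 47 members (10.0%) passed, 45 of them lower, against 1.74% of all cytosines tested. Depth also sets how small a difference the test can call, and the 9 lower cytosines include these 8 members, so they are no separate background.

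Of the 8 called cytosines, 7 lay in the chromosome 2 stretch and 1 on chromosome 15. At the deepest, chr2:98666504, the vehicle libraries read 91.9% and 91.8%, with 92.1% and 92.3% with C29, 86.7% and 86.5% with 5-azadC, and 87.9% and 88.1% with both drugs. Replicates differed by far less than libraries with and without 5-azadC. The 4 libraries with 5-azadC were lower by 4.71 points on average (log2 change of the methylation odds -0.74, SE 0.00399). The edgeR p was too small for the software to write. That SE and p use a dispersion trend shared over cytosines, so they do not measure the spread of this cytosine's own libraries alone. Since libraries with and without 5-azadC did not overlap here, the two-sided exact permutation test could only give its lowest value for 4 against 4, p = 0.0286. At the other end of its fragment the libraries with 5-azadC were lower too. There chr2:98666262 read 92.4%, 92.7%, 92.4% and 92.9% without 5-azadC, 87.6% and 87.7% with it alone and 88.5% and 89.0% with both drugs. Its neighbour chr2:98666272 lay at 84.1% to 86.8% without and 78.9% to 81.9% with 5-azadC.

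The other called cytosines of the stretch moved alike. At chr2:98662795, methylation was 91.0% to 91.8% in the 4 libraries without 5-azadC and 85.5% to 88.2% in the 4 with it. At chr2:98662856 these ranges were 93.2% to 95.01% and 87.4% to 90.4%. The largest difference was at chr2:98667107 in a coding exon of Gm10800, with 79.2% to 82.9% without and 65.1% to 76.3% with 5-azadC (-11.0 points). At chr2:98667149 the values were 92.6% to 94.7% and 85.5% to 91.3%. The groups did not overlap at any of the 7, and the largest adjusted p among them was 3.82e-10 (edgeR). At every called cytosine other than chr2:98667107, also that of chromosome 15, both C29+5-azadC libraries lay above both 5-azadC libraries, a difference that was not tested. The mean over all tested cytosines had the same order (31.1% and 31.1% against 30.0% and 30.4%). The mean over members overlapped (66.6% and 65.3% against 65.5% and 65.1%). The number of members called lower rose to 14 when C29 replicate 1 was left out, beside 1 called higher, and to 18 when C29 replicate 2 was left out.

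**Figure D4:**
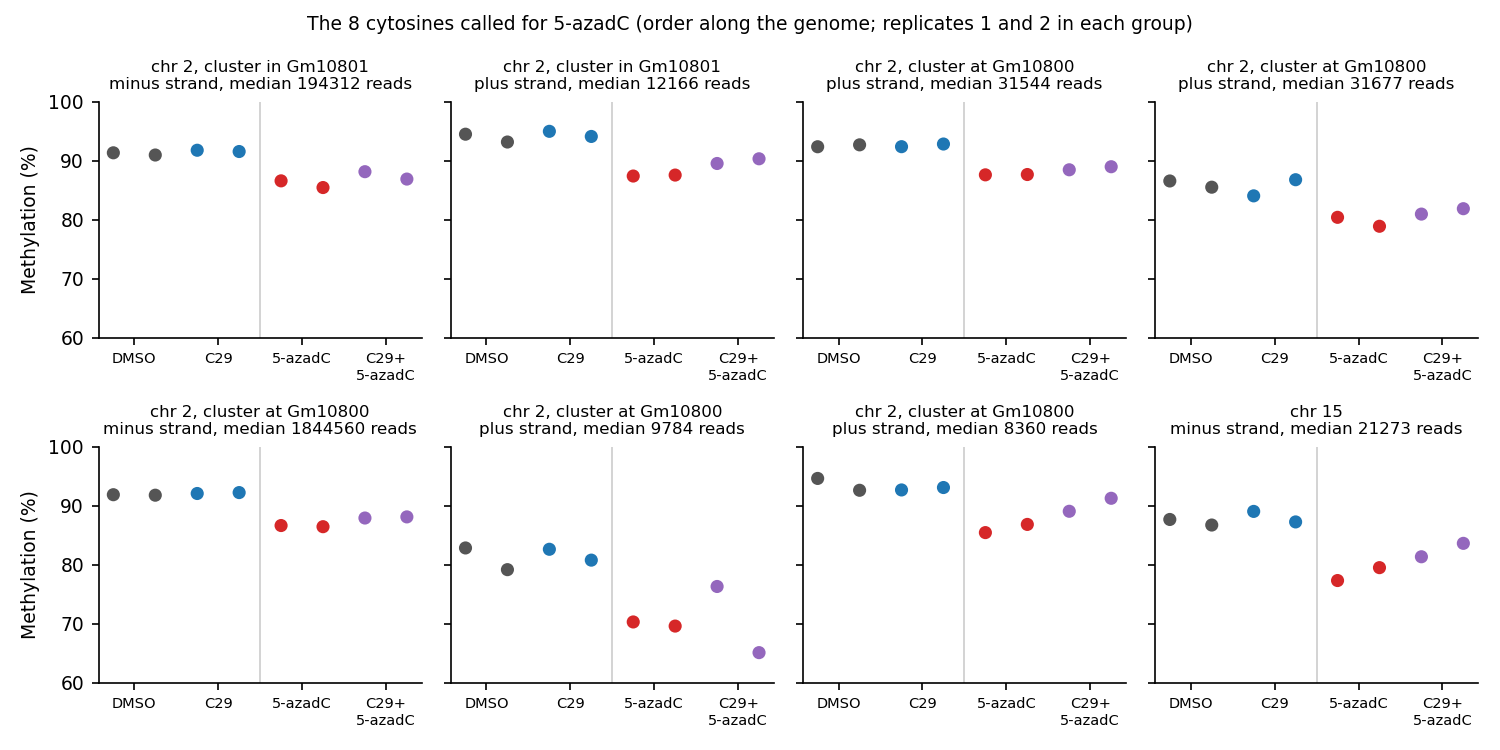
Methylation (y axis, %, from 60 to 100) in each of the 8 libraries (points, 2 per group, colored by group) at the 8 members called lower with 5-azadC by edgeR, with the strand and the median reads above each panel. In every panel the 4 points to the right of the grey line, with 5-azadC, lie below the 4 to its left.

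The chromosome 2 stretch also held a cytosine that went the other way. At chr2:98662827, between members that averaged 89.1% and 91.5%, the values were 1.94% and 3.38% with vehicle, 6.79% and 0.365% with C29, 23.7% and 17.04% with 5-azadC and 6.32% and 7.02% with both drugs. The groups overlapped through C29 replicate 1, and the difference of 10.4 points did not pass (edgeR, adjusted p = 0.149). Its depth varied widely, with 321 and 358 reads in the 5-azadC libraries, 285 in C29+5-azadC replicate 2 and 4659 in C29 replicate 2. Whether those reads come from 1 copy of the repeat or several was not tested.

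The chromosome 15 pair was the deepest cluster outside the chromosome 2 family. At chr15:75085813 methylation was 87.7%, 86.8%, 89.1% and 87.3% without 5-azadC, 77.3% and 79.5% with it and 81.4% and 83.6% with both drugs (-7.23 points, edgeR adjusted p = 3.76e-15). At chr15:75086379 it was 88.2% to 90.8% without and 77.5% to 82.6% with 5-azadC (-9.49 points). That second cytosine missed the adjusted threshold, with an unadjusted edgeR p of 0.00187. Averaged over the pair, 5-azadC libraries did not overlap the others (two-sided exact permutation test, p = 0.0286).

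Across the families of related sequence, the family of 22 clusters showed the widest gap. Its mean was 77.9%, 79.1%, 79.1% and 78.3% in the libraries without 5-azadC, 70.1% and 71.6% with 5-azadC and 72.5% and 72.2% with both drugs, which differed by -7.02 points. The chromosome 2 family had 87.6% to 88.6% without and 82.4% to 84.9% with 5-azadC (-4.29 points). The family of 6 clusters had 69.5% to 72.1% and 65.1% to 66.6% (-4.34 points), and the family of 8 clusters 82.4% to 83.5% and 78.9% to 81.05% (-3.28 points). In these 4 families, and in the pair formed by Eef2 and chr11:3150593-3150794 at Sfi1 (79.2% to 83.2% against 75.6% to 78.8%), the libraries with 5-azadC lay below all others. In the family of 3 clusters (14 members) and in the other families of 2 clusters they overlapped. The 5-azadC libraries were all lower at 7 of 25 members of the family of 22, at 14 of 41 of the chromosome 2 family, at 6 of 30 of the family of 8 and at 2 of 27 of the family of 6, beside 9.94% of all members and 1.51% of all tested cytosines.

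**Figure D5:**
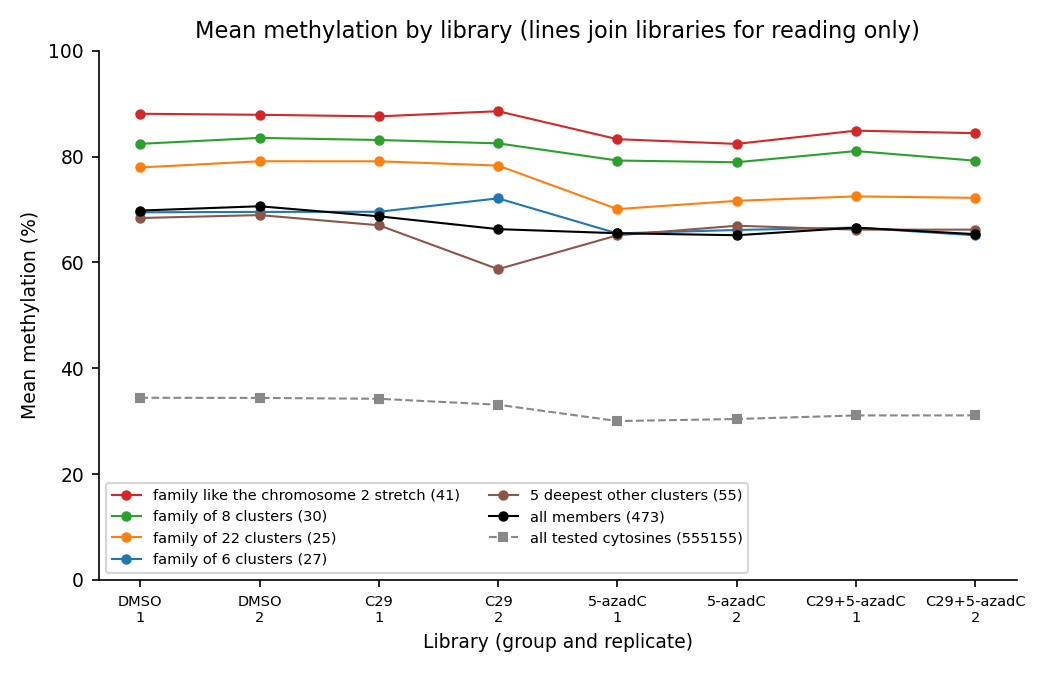
Mean methylation (y axis, %) in each library (x axis) over the members of 4 sequence families, the 5 deepest clusters outside the chromosome 2 family, all 473 members and all 555155 tested cytosines, with the number of cytosines in brackets. The 4 family lines step down at the libraries with 5-azadC, and the line of the 5 deepest other clusters dips in C29 replicate 2 (58.7%).

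The 3 sequences printed from the family of 22 gave values of single cytosines, chosen after they had been seen. At chr8:5701954 methylation was 75.8% to 97.3% without 5-azadC and 59.2% to 73.4% with it. At chr11:12922336 it was 86.2% to 94.1% and 73.4% to 85.3%. At chr7:86898345 it was 56.2% to 64.7% and 26.9% to 55.2%. Among all 133 clusters, 118 had a lower mean with 5-azadC. The groups did not overlap in some clusters, with 5-azadC lower in 24 and higher in 1. Single cytosines gave 9.94% and 0.211% among members, and 1.51% and 0.197% among all tested. Those shares are no background for clusters, whose values are means over their members, all of them deep. A background for these cluster counts was not computed.

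By number of near-copies, members with 1 changed by -2.26 points, those with 2 to 9 by -3.42, those with at least 10 but under 1000 by -4.33 and those with 1000 or more by -3.92. Without C29 replicate 2 these were -4.00, -4.05, -4.73 and -3.29 points, so the order of the classes rests on that library. Within the first class, 4 libraries without 5-azadC ranged from 60.01% (C29 replicate 2) to 68.5% and overlapped those with 5-azadC (62.3% to 64.1%). The classes differ in base composition and in starting level, and their differences were not tested against each other.

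Of all 133 clusters, 52 belonged to a family, a share not computed for clusters with at least 3 members alone. Among clusters with at least 3 members, the 5 with the largest decreases all belonged to a family. They were chr12:94550045-94550093 (intergenic, -7.69 points), chr16:22928793-22928816 (an intron of Fetub, -7.00), chr9:3004785-3004825 (a copy of the 234-base repeat, -6.10), chr10:81178122-81178765 (coding sequence of Eef2, the translation elongation factor, -5.65) and chr2:98666262-98667255 (-4.96). On chromosome 12 methylation was 95.2% to 96.6% without 5-azadC, 83.3% and 88.0% with it and 91.5% and 90.5% with both drugs. In the Fetub intron C29 replicate 1 (81.2%) lay below C29+5-azadC replicate 1 (86.3%), and in Eef2 DMSO replicate 2 (82.5%) lay below C29+5-azadC replicate 1 (82.9%), so these clusters overlapped while the other 3 did not. All 5 were picked for this difference, so no test is given. The 5 at the other end differed by 0.382 to 1.49 points, all 5 overlapped, and each changed sign when a single library was left out. Without C29 replicate 2 the Taco1 intron was at -4.59 points, chr11:109011699-109011984 at -1.04 and chr17:36231292-36231483 at -0.92. Without 5-azadC replicate 1, chr8:20298110-20298144 in an intron of Gm26804 was at -0.84 points, and without DMSO replicate 1, chr8:100022730-100022764 was at -0.30.

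The other clusters named for depth or size were compared in the same way. At chr11:109011699-109011984 (median 8282 reads) methylation was 70.2%, 71.2%, 68.0% and 61.0% without 5-azadC, 68.3% and 69.7% with it and 67.9% and 69.0% with both drugs. In the Cdk8 intron it was 64.1%, 64.8%, 65.2% and 56.4% against 61.0%, 63.7%, 64.4% and 62.2% (two-sided exact permutation test, p = 0.971), and in the Jarid2 intron the same test gave p = 0.886. At chr3:5860620-5860702 (p = 0.229), at Sfi1 (p = 0.943), over 3110070M22Rik and Tmem267 (p = 0.429) and in Gm10801 (p = 0.286, -1.56 points, or -3.98 weighted by reads) the exact permutation test also missed the threshold, which does not show that methylation was equal. The Gm10801 cluster holds 2 of the 8 called cytosines and also chr2:98662827, which went the other way. C29 replicate 2 was the lowest of the 8 libraries at chr11:109011699-109011984, in the introns of Cdk8, Jarid2 (56.4%) and Taco1 (43.2%), and at Sfi1 (70.6%). Without it the 5-azadC difference went from 0.21 to -1.87 points in the Cdk8 intron, from -0.32 to -2.69 in the Jarid2 intron, from -0.46 to -3.41 at Sfi1 and from -2.24 to -7.68 at the Erbb2 cluster.

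C29 alone was compared next. Against vehicle, the mean over members was 67.5% ± 1.71 (SD, n = 2) with C29 and 70.2% ± 0.575 with vehicle, a difference of -2.71 points against -0.743 over all tested cytosines. It was -1.50 points without C29 replicate 2 and -3.92 without C29 replicate 1. By the logistic test on pooled reads (q below 0.01 and at least 25 points), 6 members were lower and 2 higher, against a background of 6.58% lower and 5.3% higher. Of the 6, 4 belonged to the Erbb2 cluster and the others were single cytosines of chromosomes 18 and 19. The count depends on the libraries, being 22 without C29 replicate 1 and 2 without C29 replicate 2.

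At the Erbb2 cluster, methylation was 75.1% and 69.8% with vehicle, 62.2% and 47.3% with C29, 73.9% and 57.2% with 5-azadC and 59.2% and 55.2% with both drugs. It was the largest decrease with C29 among clusters of at least 3 members (-13.0 points over 4 libraries against 4), followed by chr8:15519920-15519959 (-12.2) and chr6:3182937-3182982 (-8.62), and at all 3 the libraries with and without C29 overlapped. At chr8:15519920-15519959 both vehicle libraries (88.0% and 91.3%) lay above the 6 treated ones (65.8% to 80.1%). The largest increases were 3.93 to 5.36 points, at chr9:3080684-3080723, chr8:100022730-100022764 and chr12:20233277-20234124. Over all 8 libraries C29 was lower at 22 members without overlap (4.65%, background 0.427%) and higher at 6 (1.27%, background 0.482%). Among cytosines with over 100 and up to 200 reads these shares were 0.596% and 1.59%, and in the ribosomal RNA stretch 3.65% lay below. Without C29 replicate 2, 27 members lay below and 15 above (background 0.970% and 0.899%). Of the 22, 8 lay in a cluster singled out after its values had been seen, chr16:11144050-11144097 in an intron of Zc3h7a (11 members), where the libraries with C29 read 48.4% to 53.4% and those without 55.6% to 61.4%, with no overlap. By edgeR, 2 members were higher and 1 lower. The backgrounds of 0.000577% and 0.000289% consist of these same cytosines, since no other cytosine was called. At an unadjusted p below 0.05, 37 members (7.87%) passed (background 0.686%). The higher ones were the deepest cytosines, chr2:98666504 (0.897 points) and chr2:98662795 (1.00 points), and the lower one was chr17:36231321, which read 0.331% in DMSO replicate 1, 0.269% in 5-azadC replicate 2 and 0% in the other 6 libraries. Libraries with and without C29 overlapped at both chromosome 2 cytosines, but each set mixes libraries with and without 5-azadC, which differed by more. Within each level of 5-azadC they did not overlap. At chr2:98666504 C29 libraries read 92.1% and 92.3% against 91.9% and 91.8%, and with 5-azadC 87.9% and 88.1% against 86.7% and 86.5%. At chr2:98662795 these were 91.8% and 91.6% against 91.4% and 91.0%, and 88.2% and 86.9% against 86.6% and 85.5%.

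Both drugs together, against vehicle, gave a mean of 66.0% ± 0.868 (SD, n = 2) over members, -4.24 points, beside -4.88 points for 5-azadC alone. Over all tested cytosines these were -3.32 and -4.19 points. The logistic test called 3 members lower and 0 higher with the combination (background 10.4% and 4.5%), and 2 lower and 0 higher with 5-azadC alone (background 11.2% and 3.71%). The cytosines lower with 5-azadC were chr6:120088836 (-41.9 points) and chr11:98434861 in an exon of Erbb2 (-25.5 points). With a minimum of 10 points in place of 25, 84 members were lower and 7 higher with the combination (background 18.1% and 8.49%), 83 lower and 4 higher with 5-azadC (20.2% and 7.4%), and 68 lower and 16 higher with C29 (12.4% and 10.5%). By q alone, 264 members passed with C29, 285 with 5-azadC and 265 with both (background 25.4%, 30.2% and 28.6%). Against vehicle alone, edgeR called 0 members lower and 1 higher with C29 (background 0.00115% and 0.000866%), 8 lower and 0 higher with 5-azadC (0.00231% and 0.0%) and 6 lower and 0 higher with both (0.00173% and 0.0%). With 5-azadC and with both drugs every cytosine called was a member, so those shares are no separate background. At an unadjusted p below 0.05 these edgeR tests passed 43, 47 and 35 members (background 0.628%, 1.12% and 0.985%). These comparisons share the vehicle libraries, and the logistic test on pooled reads leaves out the spread between libraries. A difference of 2 libraries against 2 has a smallest two-sided exact permutation p of 0.33. For the interaction of both drugs, edgeR called 1 member, chr2:98666504, at which C29 went with 1.14 points more in the presence of 5-azadC than in its absence (background 0.000289% higher and 0.000577% lower, with 24 members and 0.712% of all at an unadjusted p below 0.05). This member was the only cytosine called higher among all tested.

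Erbb2, which encodes the receptor tyrosine kinase that drives these tumors, had 17 members, all in exons. Its 41 tested exonic cytosines had a median of 286.5 reads and its 9 intronic ones 35. Depth and methylation changed together near the start of the gene. Between 67 and 105 bp after its start, 6 of the 7 tested cytosines had medians of 29.5 to 64 reads and methylation of 0% to 7.95%, while the one at 104 bp and those from 107 to 214 bp had medians of 286 to 413 reads and methylation of 56.2% to 67.1%, and 3 cytosines from 246 to 254 bp had 20.5 reads and 0%. In the NIC model ErbB2 is expressed from a transgene, and reads of a transgene and of the endogenous gene cannot be told apart in these counts, so the depth and methylation given for Erbb2 may not be those of the endogenous gene.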

How the data were processed

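Genomic DNA was digested with MspI and sequenced after bisulfite treatment (RRBS). The submitters' processing notes name FastQC 0.11.8, Trim Galore 0.4.1, Bismark 0.20.0 and methylKit 1.7.0. The deposited values are, per cytosine, a methylation fraction and the count of reads behind it, as the authors wrote them from their calls; duplicates were not marked. Methylated reads were recovered as fraction times count. Members and lists were chosen with earlier results of these data known. Members at most 1000 bp apart were linked into clusters. Clusters were named if they lay in the chromosome 2 stretch, were among the 8 with most members or the 5 deepest, or, with at least 3 members, had the 5 largest 5-azadC or 3 largest C29 differences in either direction. Groups were compared with vehicle by a logistic test on pooled reads (q below 0.01, at least 25 points) over cytosines with at least 10 reads, and over 8 libraries by edgeR 4.0.16 (Benjamini-Hochberg, adjusted p below 0.05). Single values used two-sided exact permutation tests. Copies were found with BLAST 2.17.0 in GRCm38 with GENCODE annotation. Libraries are pools of 2 mice, so permutation p-values rest on the spread between pools, while the logistic test leaves that spread out. The edgeR fit used a dispersion trend shared over cytosines. Its p at a single deep cytosine therefore does not rest on the spread of that cytosine's own libraries alone. On simulated data (5-azadC comparison, 19880 cytosines, shifts of 35 points) edgeR called 100 of 100 shifted members, 71 of 100 other shifted cytosines, 2 of 373 unshifted members and 3 of 19307 other unshifted cytosines; shifts of the size seen here were not simulated. Alternatives were the coverage minimum, minimum difference, tool, normalization, strand summing, thresholds, a replicate block and each library left out.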

Additional observations from a re-analysis of the deposited data

Results flagged for a closer look

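The minus-strand cytosine at chr2:98666504 stood out because the difference between C29 and no C29 was not the same with and without 5-azadC. C29 minus vehicle was 0.325 points and C29+5-azadC minus 5-azadC 1.47 points, a difference of 1.14 points (edgeR interaction, adjusted p = 4.09e-52). With a minimum of 20 reads and with limma no member was called for the interaction. The smallest adjusted p among members for the interaction was 0.948 with limma. The cause was not tested.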

How the results depend on the processing

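Leaving out the 0.1% of cytosines of highest coverage removed all members, so the logistic counts became 0 and edgeR could not be run on them. The logistic counts against vehicle were 8 for C29, 2 for 5-azadC and 3 for both drugs. They were 0, 0 and 0 with an overdispersion-corrected F test, 84, 87 and 91 with a minimum of 10 points, and 1, 8 and 6 with edgeR, and summing strands gave 4 for C29. Leaving out 1 library gave 2 to 22, 5 to 11 and 5 to 11. The edgeR counts over 8 libraries were 8 for 5-azadC, 3 for C29 and 1 for the interaction; limma gave 2, 1 and 0, a minimum of 20 reads gave 0 for the interaction, and leaving out 1 library gave 7 to 18, 1 to 30 and 1 to 18. The highest of these were without C29 replicate 2, 1 and 1, and the C29 count fell to 1 without DMSO replicate 1, 5-azadC replicate 2 or C29+5-azadC replicate 1. Replicate numbers did not pair the samples over all cytosines (correlations of deviations -0.00446 to 0.00745). Over members these correlations were -0.0933 to 0.113. The replicate block gave 8, 2 and 3 for the logistic counts and 9, 2 and 1 for edgeR. With each cluster counted once, the mean difference was -5.89 points with 5-azadC and 0.336 with C29 over 8 libraries, and against vehicle -0.903 with C29, -7.12 with 5-azadC and -5.55 with both; C29 minus vehicle ranged from -3.92 to -1.50 when 1 library was left out. More than 300 reads left 286 members in 75 clusters, and more than 150 reads gave 221 clusters. The causes were not tested.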
